A study of Mus musculus with 95 samples.

Results

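The 37 genes described here carry out or control macroautophagy and lysosomal breakdown. They were chosen as a list of named genes, and all 37 of them were found among the 39179 genes of the deposited cortex table and passed the low-count filter of every comparison. By role, 4 of them start an autophagosome (Ulk1, Ulk2, Rb1cc1, Atg13) and 3 belong to the lipid kinase complex that nucleates its membrane (Becn1, Pik3c3, Atg14). A further 5 attach Atg8 proteins to that membrane (Atg3, Atg5, Atg7, Atg12, Atg16l1), and 5 encode the Atg8 proteins themselves (Map1lc3a, Map1lc3b, Gabarap, Gabarapl1, Gabarapl2). Another 4 encode cargo receptors or scaffolds (Sqstm1, Nbr1, Optn, Wdfy3) and Tfeb and Tfe3 encode transcription factors. On the lysosomal side stood 5 membrane proteins (Lamp1, Lamp2, Npc1, Mcoln1, Scarb2), 6 enzymes (Ctsa, Ctsb, Ctsd, Ctsl, Gaa, Tpp1) and 3 lumenal cofactors (Grn, Npc2, Psap).

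The study profiled messenger RNA of the cerebral cortex of C57BL/6 mice heterozygous for a huntingtin (Htt) knock-in allele with a CAG repeat of chosen length, which gives the lines Q20, Q50, Q92 and Q140 their names. Males and females of each line were sampled at 6 and at 10 months, beside wild-type mice that were housed either with Q20 mice or with Q50 mice at the same ages. The cages of Q92 and of Q140 mice held that line alone, so line and cage company cannot be told apart when these lines are set against wild type. Of the 95 libraries, 48 come from the younger and 47 from the older mice, and each sex of a line and age has 4, save male Q140 mice at 10 months with 3. The libraries carry replicate numbers but are not stated to be separate animals, so p-values measure the spread between these libraries. All knock-in mice keep 1 wild-type Htt copy, and no other allele or treatment is named.

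In macroautophagy, a double membrane grows around cytoplasmic cargo, closes, and fuses with a lysosome whose acid hydrolases degrade the content. Atg8 proteins coat the growing membrane, and receptors such as p62 (Sqstm1) tie ubiquitinated cargo to them. Neurons depend on the pathway to clear protein aggregates, and mutant huntingtin is known both as a cargo of autophagy and as a protein that disturbs cargo loading. TFEB and TFE3 activate lysosomal and autophagy genes through an E-box-like promoter element named CLEAR.

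That element centres on the letters CACGTG, and the RefSeq promoter windows (GRCm38.p6, 250 bases before to 50 after the start site) of 28 of the 37 members were searched for TCACGTG or its reverse complement CACGTGA. At least 1 of these occurred in 8 of the 28 members (28.6%), which were Atg14, Atg3, Atg7, Ctsa, Ctsd, Gaa, Lamp1 and Mcoln1. Among other autophagy and lysosome genes the share was 21.6% (24 of 111), and among all 27025 genes with a window it was 4.29%. The palindrome TCACGTGA, which holds both forms, occurred in 14.3% of the members, in 9.01% of the other pathway genes and in 1.12% of all genes. The bare hexamer CACGTG, part of every longer match, occurred in 35.7%, 23.4% and 8.09% of the same sets. A match describes the letters of a window and is not evidence of binding. The windows of the 3 members that both hold the element and were called when a knock-in line was set against wild type are printed here, on the gene's own strand, with the element in capitals. They lie at chr8:3500422-3500478 and chr8:3500448-3500505 (plus strand, Mcoln1), chr11:119267797-119267853 (plus strand, Gaa) and chr6:114670938-114670994 (plus strand, Atg7).
Mcoln1, distal element: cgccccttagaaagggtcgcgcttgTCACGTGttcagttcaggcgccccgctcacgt
Mcoln1, proximal element: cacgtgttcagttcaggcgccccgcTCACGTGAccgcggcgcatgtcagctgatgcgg
Gaa: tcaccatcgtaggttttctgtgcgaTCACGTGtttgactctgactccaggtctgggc
Atg7: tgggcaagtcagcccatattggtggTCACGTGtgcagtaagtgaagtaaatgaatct
The first element base lies 72 and 46 bases before the start site in Mcoln1, 141 before it in Gaa and 133 before it in Atg7. Among the other members called in such a comparison, the windows of Map1lc3b, Gabarapl1 and Psap held neither form. Map1lc3a, Ctsb and Npc1, also called in one, had no window and were not searched.

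The libraries held 30.3 M to 41.1 M estimated counts each (M, mega), with a median of 34.1 M. Mitochondrial genes took 9.08% to 14.7% of them, and 2 libraries exceeded 13%: female Q50 replicate 4 (14.7%) and male Q92 replicate 3 (13.6%), both at 6 months. Cortical excitatory neuron markers (9 genes such as Slc17a7) summed to 4071 to 5379 CPM (estimated counts scaled to a common library size with TMM factors) over the libraries of all groups, and none was at 0 throughout any group. Markers of striatal projection neurons (14 genes such as Drd1 and Penk) were also present and uneven, with 331 CPM in the lowest library and 1629.9 CPM in the highest, and none of the 14 was at 0 throughout a group. Htt itself was lower in Q140 than in wild-type cortex at 10 months, at 196 ± 13.9 CPM in Q140 (SD, n = 7) against 221 ± 19.6 CPM in wild type (SD, n = 16), a log2 fold change of -0.17 ± 0.045 (SE, adjusted p = 0.04).

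The members spanned a wide range of levels. Per length, Psap (prosaposin, precursor of the saposin activators of sphingolipid hydrolases) was the highest at 521 ± 19.2 FPKM (SD over 95 libraries). Gabarapl1 followed at 269.8 ± 11.6, Sqstm1 at 156 ± 8.92, Ctsd (cathepsin D) at 138 ± 7.0 and Lamp1, a major lysosomal membrane glycoprotein, at 126 ± 4.6 FPKM. At the low end stood Tfeb at 2.61 ± 0.47 FPKM, Atg14 at 5.96 ± 0.272, Optn at 6.8 ± 0.548, Atg7 at 7.26 ± 0.378 and Atg5 at 8.49 ± 0.482 FPKM. The most abundant members are thus products of the lysosome lumen and membrane, an Atg8 protein and a receptor, while the least abundant include 1 of the 2 transcription factors and 3 genes of nucleation and conjugation. Between libraries of a line and age, the coefficient of variation (the median over groups) was 2.31% for Psap, 3.18% for Gabarapl1 and 12.9% for Tfeb, so a change of a given size was easier to detect for Psap than for Tfeb. Annotated exons of 14 members share bases with another gene, among them Ctsb (774 with Fdft1), Sqstm1 (580 with Mrnip), Map1lc3b (58 with Zcchc14) and Gabarapl1 (47 with 1700101I11Rik), all on the opposite strand. Whether counting used strand is not given in the sources used here, so their values are uncertain by the reads of these neighbours. Ctsd (670 with Gm49369) and Ctsl (395 with Gm49230) also share bases with a gene on the same strand, which stranded counting would not separate.

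Each knock-in line was then set against its wild types at each age, Q20 and Q50 against the wild types caged with them, Q92 and Q140 against the mean of both wild-type groups. A member was called when its adjusted p over all genes tested was under 0.05 in edgeR. No member was called in Q20 at 6 months (0.0169% of 17716 genes tested), Q50 at 6 months (0.0226%), Q140 at 6 months (3.52%), Q50 at 10 months (0.0561% of 17813 genes), Q92 at 10 months (0.853%) or Q140 at 10 months (1.2%). At an unadjusted p under 0.05 these 6 comparisons held 1, 5, 5, 0, 6 and 1 of the 37 members. At 6 months that was 2.7% against 2.25% of all genes in Q20, 13.5% against 5.9% in Q50 and 13.5% against 14.7% in Q140. At 10 months it was 0 against 2.4% in Q50 and 2.7% against 12.9% in Q140. In Q92 at 10 months it was 16.2%, somewhat above the share of all genes. DESeq2's Wald test gave 0 calls in each of the 6 comparisons except Q140 at 6 months, where it gave 2. Members were called in Q92 at 6 months (5 of 37, 13.5%, against 7.83% of all genes, with 4 members higher against 3.3% of genes and 1 lower against 4.53%) and in Q20 at 10 months (5 of 37, all lower, against 4.35% of genes, 2.56% higher and 1.79% lower). Map1lc3b alone was called in both, higher in Q92 at 6 months and lower in Q20 at 10 months. The overlap of these calls was not counted over all genes. The Q92 and Q140 comparisons of an age share their wild-type libraries.

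**Figure D1:**
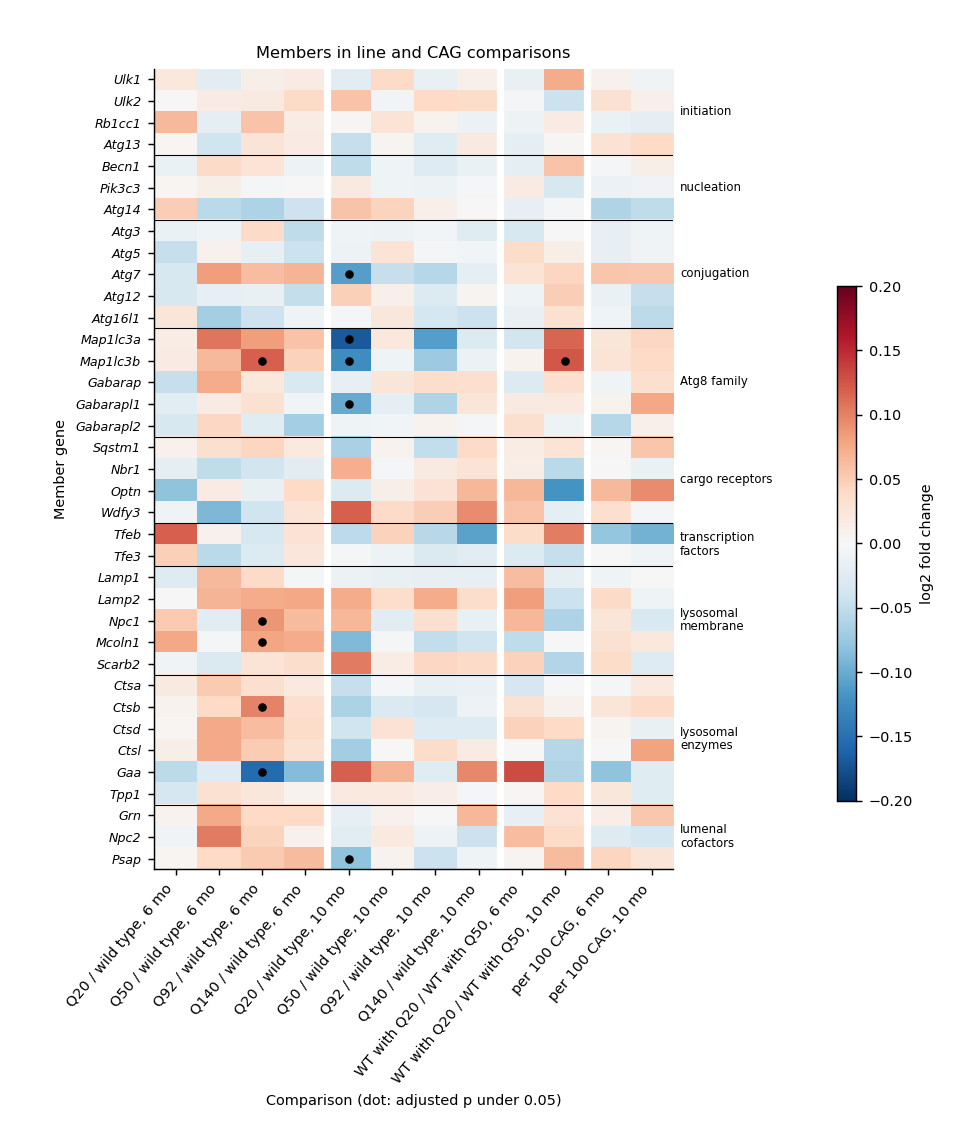
Log2 fold change of each of the 37 members (rows, grouped by role) for each of the 4 knock-in lines against wild type at both ages, in wild types housed with Q20 against wild types housed with Q50, and per 100 CAG repeats over the knock-in lines; red is higher in the first-named group, and dots mark an adjusted p under 0.05. Dots sit in the Q92 column at 6 months (5), the Q20 column at 10 months (5) and the wild-type column at 10 months (1).

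At 6 months, Q92 cortex had more mRNA of Map1lc3b, Mcoln1, Ctsb and Npc1 than wild-type cortex and less of Gaa. Map1lc3b encodes LC3B, the Atg8 protein used most widely to mark autophagosomes. It lay between 189 and 227 CPM in the 8 Q92 libraries, with a median of 198, against 173 to 198 CPM and a median of 185 in the 16 wild-type libraries. All 8 Q92 libraries were above the wild-type mean, yet the ranges of the groups overlapped. The log2 fold change was 0.12 ± 0.032 (SE, adjusted p = 0.011), and the call held when any of the 24 libraries was left out. Mcoln1 encodes mucolipin 1, the calcium channel of the lysosomal membrane. Its levels were 54.1 to 63.1 CPM in Q92 (median 59.5) against 53.9 to 59.0 CPM in wild type (median 56.2). That is a log2 fold change of 0.079 ± 0.023 (adjusted p = 0.024), with 7 of 8 Q92 libraries above the wild-type mean and overlapping groups. Without female Q92 replicate 3 the adjusted p was 0.074, and without male Q92 replicate 4 it was 0.068.

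Ctsb encodes cathepsin B, a cysteine protease of the lysosome. It measured 522 to 612 CPM in Q92 (median 533) against 461 to 531 CPM in wild type (median 508), a log2 fold change of 0.099 ± 0.03 (adjusted p = 0.027). The groups overlapped only at their edges, and all 8 Q92 libraries exceeded the wild-type mean. The call was lost without male Q92 replicate 3, the library with 13.6% mitochondrial counts and the highest Ctsb value, at an adjusted p of 0.11. Npc1, the cholesterol exporter of the lysosomal membrane, averaged 79.9 ± 3.28 CPM in Q92 (SD, n = 8) and 75.2 ± 2.75 CPM in wild type (SD, n = 16), a log2 fold change of 0.089 ± 0.028 (adjusted p = 0.038). Gaa, the acid glucosidase that degrades lysosomal glycogen, averaged 225 ± 9.91 CPM in Q92 and 250.2 ± 18.8 CPM in wild type, a log2 fold change of -0.15 ± 0.048 (adjusted p = 0.036). All 8 Q92 libraries were below the wild-type mean of Gaa. Both calls were marginal. Npc1 lost its call, at adjusted p-values of 0.052 to 0.083, without any 1 of female Q92 replicates 1, 2, 3 and 4, male Q92 replicates 1 and 2, or male replicate 4 of the wild types housed with Q50. Gaa lost its call, at 0.05 to 0.095, without any 1 of 13 libraries: female Q92 replicates 1, 2 and 4, male Q92 replicates 1 and 3, female replicates 3 and 4 and male replicates 1, 3 and 4 of the wild types housed with Q20, and female replicates 1 and 3 and male replicate 4 of those housed with Q50. The number of members called was 3 instead of 5 without any 1 of female Q92 replicates 1 to 4, male Q92 replicates 1 and 3, and male replicate 4 of the wild types housed with Q50. It was 3 as well against either wild-type group alone. Mcoln1 (adjusted p = 0.31) and Gaa (0.46) were not called against wild types housed with Q50, nor Ctsb (0.16) and Npc1 (0.39) against those housed with Q20, while Map1lc3b was called against each (0.044 and 0.047).

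Over all 37 members the median log2 fold change in Q92 at 6 months was 0.027, against 0.0044 over all genes, and 25 members were above 0. Of the 9 roles, the 5 membrane proteins were all above 0 (0.027 to 0.089, 2 of 5 called) and the 3 lumenal cofactors lay at 0.041 to 0.053 (none called). The 95% confidence interval lay within ±0.2 on the log2 scale for 36 of 37 members, Gaa being the exception. Marker genes moved in the same comparison. The 14 striatal projection neuron markers were all called lower in Q92 (median log2 fold change -1.34), with summed levels of 362 to 453 CPM in Q92 libraries against 508 to 1166 CPM in wild-type libraries. All 4 detected forebrain cholinergic markers and all 4 olfactory bulb markers were called lower too, and 3 of 7 choroid plexus markers were called higher. Among 9 cortical excitatory markers 4 were called higher and 1 lower. The part of these markers in the differences between the members was not tested. In bulk cortex, fewer cells of a type, less RNA per cell and a difference in the tissue taken cannot be told apart. The same 14 striatal markers were also all called lower in wild types housed with Q20 than in those housed with Q50 at 10 months (median -1.32).

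At 10 months, Q20 cortex had less mRNA of 3 of the 5 Atg8 genes, of Atg7 and of Psap than wild types housed with Q20. Map1lc3b lay between 178 and 197 CPM in the 8 Q20 libraries (median 189) against 195 to 221 CPM in the 8 wild-type libraries (median 203). All 8 Q20 libraries were below the wild-type mean, and the ranges met only at 195 to 197 CPM. The log2 fold change was -0.12 ± 0.029 (adjusted p = 0.018), lost without male wild-type replicate 2 (0.053). Gabarapl1, an Atg8 gene of the GABARAP branch, measured 429 to 472 CPM in Q20 (median 455) against 479.9 to 495 CPM in wild type (median 484). The groups did not overlap, and the log2 fold change was -0.1 ± 0.025 (adjusted p = 0.021). The adjusted p was 0.051 without female Q20 replicate 2, 0.058 without male Q20 replicate 1 and 0.057 without male Q20 replicate 4.

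Map1lc3a, which encodes LC3A, had 78.3 to 103 CPM in Q20 (median 86.3) against 89.3 to 108 CPM in wild type (median 99.4). With 7 of 8 Q20 libraries below the wild-type mean and overlapping ranges, its log2 fold change was -0.17 ± 0.042 (adjusted p = 0.024). It was not called, at 0.05 to 0.082, without any 1 of male Q20 replicates 1, 2 and 4, female wild-type replicate 4 and male wild-type replicate 2. Gabarap and Gabarapl2, the remaining Atg8 genes, were at -0.017 ± 0.038 and -0.0084 ± 0.03 (not called). Psap had 1261 to 1429 CPM in Q20 (median 1327) against 1322 to 1493 CPM in wild type (median 1404), a log2 fold change of -0.081 ± 0.024 (adjusted p = 0.047). Atg7, the E1-like enzyme that activates Atg12 and the Atg8 proteins, averaged 25.5 CPM in Q20 and 27.4 CPM in wild type (n = 8 each), a log2 fold change of -0.11 ± 0.034 (adjusted p = 0.05, just under the threshold). These last 2 calls rested on nearly the full set of libraries. Psap kept its call only without female Q20 replicate 3, female Q20 replicate 4 or female wild-type replicate 2, and leaving out any other of the 16 libraries gave 0.052 to 0.15. Atg7 kept its call only without female Q20 replicate 4, female wild-type replicate 2 or male wild-type replicate 2, and any other gave 0.054 to 0.13. The number of members called lay between 1 and 7, and was 1 without male Q20 replicate 1 or male Q20 replicate 4. It was 2 without female Q20 replicate 2, male Q20 replicate 2, female wild-type replicate 4 or male wild-type replicate 2, and 3 without female Q20 replicate 1, male Q20 replicate 3, female wild-type replicates 1 and 3 or male wild-type replicates 1, 3 and 4, each left out alone. When the L code in the library names was added to the fit, no member was called (Map1lc3b adjusted p = 0.076), and against the mean of both wild-type groups only Gabarapl1 was. In the L code factor, libraries with no D code in their names (9 in the series) were pooled into a single level, whatever their L code.

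**Figure D2:**
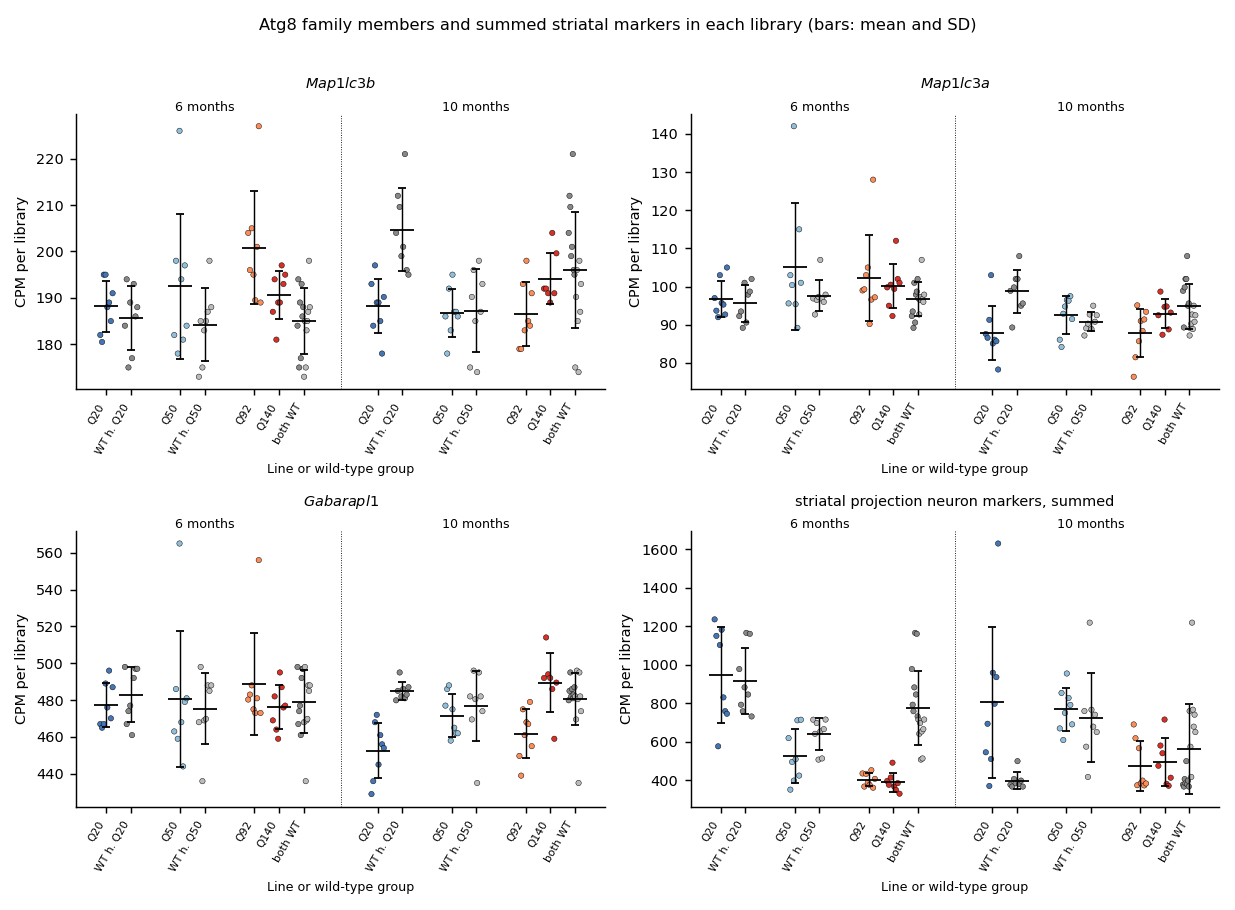
CPM per library of Map1lc3b, Map1lc3a and Gabarapl1, and the summed CPM of 14 striatal projection neuron markers, with each knock-in line to the left of its wild types (WT h., wild type housed with the named line; dark grey housed with Q20, light grey housed with Q50) at 6 and 10 months; points are libraries and bars are mean and SD. Gabarapl1 in Q20 at 10 months (429 to 472) sits below its wild types (479.9 to 495), where the striatal sum is 371 to 1629.9 in Q20 against 368 to 500 in those wild types.

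The wild types entering that comparison also differed from the other wild types. In wild types housed with Q20 against wild types housed with Q50 at 10 months, Map1lc3b was the only member called (1 of 37, 2.7%, against 7.03% of all genes, 3.4% higher and 3.63% lower). It averaged 205 ± 9.02 CPM in wild types housed with Q20 and 187 ± 8.91 CPM in those housed with Q50 (SD, n = 8 each), a log2 fold change of 0.12 ± 0.029 (adjusted p = 0.0071). This call held when any of the 16 libraries was left out. The 195 to 221 CPM of wild types housed with Q20 stood above the 178 to 197 CPM of Q20 mice and also above most of the 174 to 198 CPM of the other wild types. At 6 months no member was called between the wild-type groups (0.0903% of all genes), the nearest being Gaa (0.13 ± 0.055, adjusted p = 0.47) and Lamp2 (0.084 ± 0.038, adjusted p = 0.53). At an unadjusted p under 0.05 there were 3 members at 6 months (8.11%, against 8.17% of all genes).

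Striatal markers moved with both 10-month comparisons. In Q20 against its wild types, 13 of 14 were called higher (median log2 fold change 1.48), with summed levels of 371 to 1629.9 CPM in Q20 and 368 to 500 CPM in wild types housed with Q20. Between the wild-type groups all 14 were called lower in those housed with Q20 (median -1.32), with 368 to 500 CPM in them and 418 to 1219 CPM in wild types housed with Q50. The 4 detected cholinergic markers followed the same directions. The part of these markers in the member calls was not tested.

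In the remaining line comparisons the members with the smallest p give the size of what was measured without a call. Mcoln1 was nearest in Q20 at 6 months, with 56.5 to 59.9 CPM in Q20 (median 58.8) against 53.9 to 56.6 CPM in wild types housed with Q20 (median 55.3). These ranges touched only at 56.5 to 56.6 CPM, and all 8 Q20 libraries were above the wild-type mean, but with adjustment over all genes the log2 fold change of 0.078 ± 0.027 had an adjusted p of 1.0. In Q140 at 6 months Psap was at 0.0625 ± 0.0196 (adjusted p = 0.062) and Mcoln1 at 0.074 ± 0.023 (adjusted p = 0.065). Psap measured 1366 to 1509 CPM in Q140 (median 1429) against 1306 to 1418 CPM in wild type (median 1374), and Mcoln1 56.0 to 60.9 CPM in Q140 (median 59.5) against 53.9 to 59.0 CPM in wild type (median 56.2). The log2 fold changes of Mcoln1 in Q20, Q92 and Q140 at 6 months share the wild types housed with Q20 and are not independent of each other. Those wild types averaged 55.3 CPM, against 57.0 CPM in the wild types housed with Q50 (-0.05 ± 0.027, adjusted p = 0.67). In Q50, set against its own wild types, Mcoln1 was at -0.0042 (56.9 ± 2.07 CPM in Q50 against 57.0 ± 1.15 CPM in wild types housed with Q50). The difference between lines was not tested.

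Without the 2 libraries of over 13% mitochondrial counts, both Q140 values passed the threshold at 6 months (Psap adjusted p = 0.0068, Mcoln1 adjusted p = 0.028). Neither of these libraries is a Q140 or wild-type library, and they enter that comparison only through the spread, filter and scaling shared by all lines. Leaving out 1 library at a time also gave calls: Psap at 0.037 to 0.049 without any 1 of female Q140 replicate 4, male Q140 replicate 2, female replicates 1, 2 and 4 or male replicate 4 of the wild types housed with Q20, or female replicates 1 and 4 or male replicates 1, 2 and 3 of those housed with Q50. Mcoln1 was called at 0.027 to 0.048 without any 1 of female Q140 replicates 2 and 4, female replicate 2 or male replicate 4 of the wild types housed with Q20, or male replicate 1 of those housed with Q50. Striatal markers were lower in Q140 at 6 months as well (14 of 14 called, 331 to 492 CPM in Q140 against 508 to 1166 CPM in wild type), and their part was not tested.

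**Figure D3:**
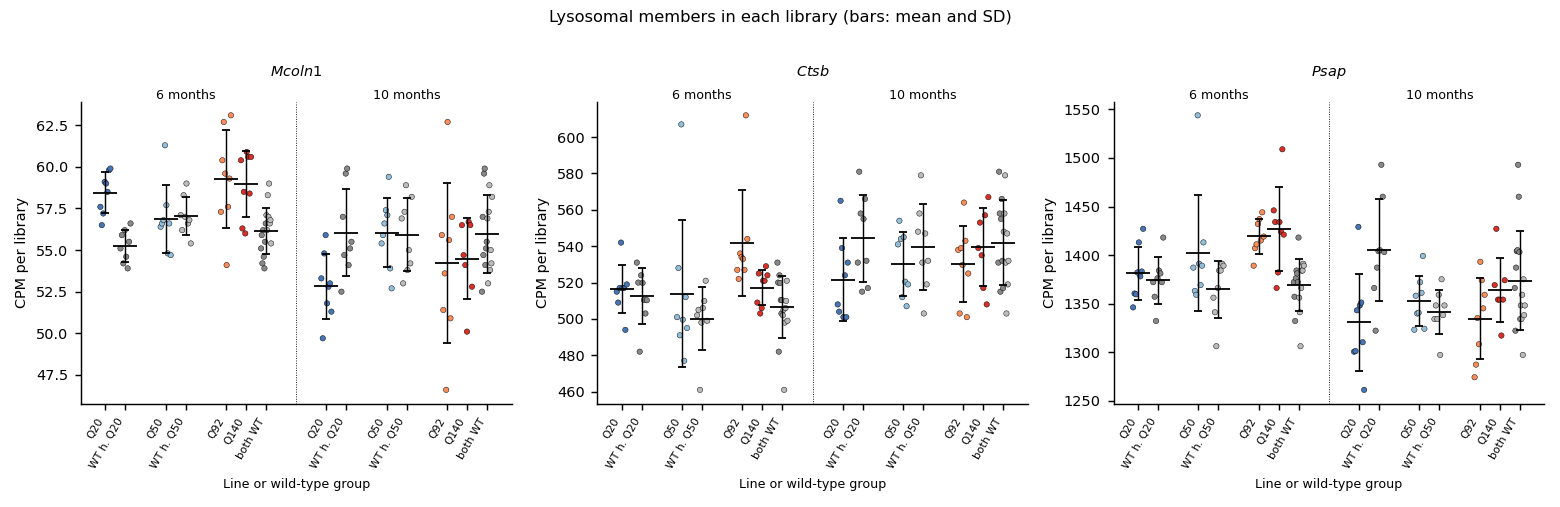
CPM per library of Mcoln1, Ctsb and Psap, with each knock-in line to the left of its wild types at 6 and 10 months; points are libraries (colours by line, greys for the wild-type groups, WT h. meaning wild type housed with the named line) and bars are mean and SD. Mcoln1 in Q20 at 6 months (56.5 to 59.9) lies almost wholly above its wild types (53.9 to 56.6), and at 10 months the order of their medians is the reverse (52.9 against 55.3).

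Atg7 (0.083 ± 0.032) and Grn, the progranulin gene (0.075 ± 0.0354), were nearest in Q50 at 6 months, both at an adjusted p of 0.8. At 10 months the nearest were Atg7 (-0.046 ± 0.034) and Atg14 (0.045 ± 0.0335) in Q50, both at an adjusted p of 1.0, and Grn (0.067 ± 0.0315, adjusted p = 0.35) and Wdfy3 (0.095 ± 0.048, adjusted p = 0.39) in Q140. In Q92 they were Map1lc3a (-0.11 ± 0.037, adjusted p = 0.14) and Map1lc3b (-0.072 ± 0.025, adjusted p = 0.16). Those 2 were called, at adjusted p-values of 0.011 and 0.0037, only against the wild types housed with Q20, the group in which Map1lc3b stood higher. In these 6 comparisons the 95% interval lay within ±0.2 on the log2 scale for 34 to 37 of the 37 members. That band is wider than every line call, the largest being -0.17 for Map1lc3a in Q20 at 10 months. Changes of the size called elsewhere could therefore have been missed. The median absolute log2 fold change of the members was 0.016 to 0.039 in them, against 0.038 to 0.058 over all genes. Those genes were not matched to the members by level or spread.

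Across lines, the Atg8 genes did not share a direction. Map1lc3a was above wild type in all 4 lines at 6 months (0.015 to 0.11, none called) and Map1lc3b likewise (0.016 to 0.12, called in Q92). Gabarap lay between -0.0455 in Q20 and 0.0735 in Q50 and Gabarapl2 between -0.068 in Q140 and 0.041 in Q50 at 6 months, with no call. At 10 months Gabarap lay between -0.017 in Q20 and 0.0355 in Q92, Gabarapl2 between -0.0084 in Q20 and 0.0067 in Q92, and Gabarapl1 between -0.1 in Q20 and 0.024 in Q140. The high values of Map1lc3a and Map1lc3b in Q50 at 6 months rest on female replicate 4, at 142 and 226 CPM, while the medians of that group were 101 and 189 CPM.

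CAG length was fitted as a trend over the 4 knock-in lines. No member was called at 6 months (1.78% of all genes) or at 10 months (0.891%). DESeq2's Wald test did call a member at 10 months. Leaving out the libraries of over 13% mitochondrial counts gave a call at 6 months. At an unadjusted p under 0.05 there were 3 (8.11%, against 11.4% of all genes) and 4 (10.8%, against 13.1%). Per 100 repeats, Psap was at 0.043 ± 0.0195 and Atg14 at -0.06 ± 0.027 at 6 months (both adjusted p = 0.37). At 10 months Gabarapl1 was at 0.078 ± 0.022 (adjusted p = 0.089) and Ctsl, the cathepsin L gene, at 0.08 ± 0.029 (adjusted p = 0.2). Gabarapl1 levels at 10 months had medians of 455 CPM in Q20, 469.9 in Q50, 464 in Q92 and 492 in Q140, so the lowest and highest lines held the lowest and highest medians without a steady climb between them. All members except Tfeb had an interval within ±0.2 per 100 repeats at both ages.

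Over all genes, 10 months against 6 months gave a larger called share in each line and in wild type than any comparison of lines did. Among members the 4 calls in Q140 were fewer than the 5 in Q92 at 6 months or in Q20 at 10 months. Called members numbered 8 in Q20 (21.6%, against 15.3% of all 18187 genes), 14 in Q50 (37.8%, against 25.4%), 11 in Q92 (29.7%, against 25.2%), 4 in Q140 (10.8%, against 17.4%) and 11 in wild type (29.7%, against 23.0%). The number of higher and lower calls was 4 and 4 in Q20, 9 and 5 in Q50, 3 and 8 in Q92, 1 and 3 in Q140 and 9 and 2 in wild type. Over all genes the higher and lower shares were 5.82% and 9.47% in Q20, 11.6% and 13.7% in Q50, 11.8% and 13.4% in Q92, 7.51% and 9.94% in Q140, and 9.56% and 13.4% in wild type. Animals of the 2 ages form separate groups, so age and any difference in how those groups were raised or processed cannot be told apart. Of the 37 members, 17 (45.9%) had the same sign in all 5 age changes, 12 of them upward, against 40.9% of all genes. A call in at least 1 of the 5 was made for 27 members (73%), against 49.8% of all genes. The age changes of members were smaller than those of all genes, by the median absolute log2 fold change. This was 0.0618 in members against 0.0967 over all genes in Q20, 0.0537 against 0.116 in Q50 and 0.0698 against 0.112 in Q92. It was 0.061 against 0.103 in Q140 and 0.0349 against 0.0746 in wild type. The members were not matched by level or spread to the genes they are set against. Neither these medians nor the called shares therefore compare like genes.

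Tfeb, the master transcription factor of lysosomal genes, was lower at 10 than at 6 months in every line and in wild type, and was the only member called in all 5 (2.7% of members, against 4.95% of all genes). In Q20 it measured 3.68 to 6.37 CPM at 10 months (median 4.48) against 5.44 to 7.21 CPM at 6 months (median 6.28), a log2 fold change of -0.43 ± 0.1 (adjusted p = 0.0015). Q50 had 3.64 to 5.51 CPM at 10 months (median 4.67) against 5.02 to 6.54 CPM at 6 months (median 5.5), a change of -0.28 ± 0.1 (adjusted p = 0.033). In Q92 the values were 3.5 to 5.07 CPM at 10 months (median 4.6) against 5.12 to 6.54 CPM at 6 months (median 5.49), a change of -0.31 ± 0.1 (adjusted p = 0.019). The Q92 ages did not overlap, while the Q20 and Q50 ages did.

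Q140 had 3.27 to 5.37 CPM of Tfeb at 10 months (median 4.02) against 4.21 to 7.36 CPM at 6 months (median 5.66), a change of -0.42 ± 0.11 (adjusted p = 0.0031). In wild type it measured 3.11 to 6.22 CPM at 10 months (median 4.46) against 4.87 to 6.31 CPM at 6 months (median 5.62), a change of -0.29 ± 0.071 (adjusted p = 0.0017). These ranges overlapped, with 14 of 16 wild-type and 7 of 7 Q140 libraries at 10 months below the mean at 6 months. No difference of the Tfeb age change between a line and its wild types was called. In wild types housed with Q20 alone the change was -0.25 (adjusted p = 0.098), and in Q92 the call was lost without female replicate 1 (0.054) or male replicate 3 (0.055) at 10 months. The Q50 call of Tfeb was not followed library by library. Without female Q50 replicate 4 at 6 months the number of members called in Q50 was 6 instead of 14.

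**Figure D4:**
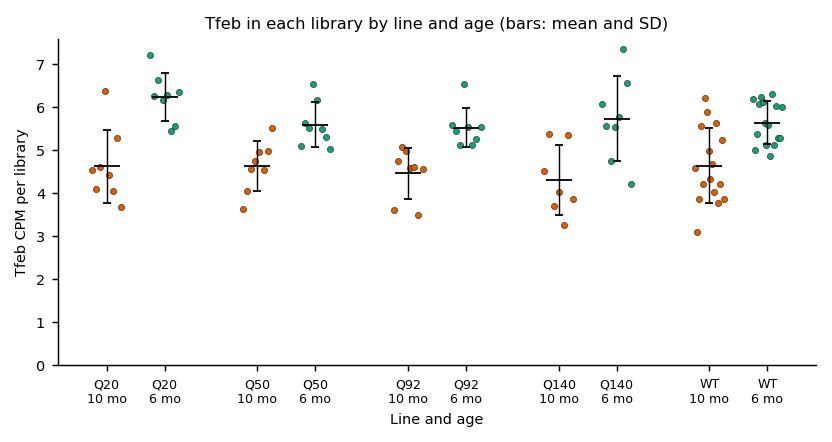
Tfeb CPM per library by line, with 10 months (orange) to the left of 6 months (green) and the wild types (WT, both housing groups) at the right; points are libraries and bars are mean and SD. The medians at 10 months are 4.02 to 4.67 CPM, below the 5.49 to 6.28 CPM at 6 months in every line and in wild type.

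Among the other regulators and the initiation genes, Tfe3 fell in Q20 (-0.1 ± 0.032, adjusted p = 0.017). Ulk2, an initiating kinase, rose at 10 months in Q20 (0.1 ± 0.0305, adjusted p = 0.013), in Q92 (0.093 ± 0.0305, adjusted p = 0.017) and in wild type (0.068 ± 0.0215, adjusted p = 0.015). Rb1cc1, which encodes the scaffold FIP200 of the initiation complex, rose in Q50 (126 CPM at 10 months, 111 CPM at 6 months, log2 fold change 0.19 ± 0.0425, adjusted p = 0.00063) and in Q140 (0.13 ± 0.044, adjusted p = 0.036). In wild type Rb1cc1 had 124 CPM at 10 months and 112 CPM at 6 months, with 16 of 16 libraries above the mean at 6 months (0.15 ± 0.03, adjusted p = 0.00013). Its Q140 call held only without female replicate 2 or 4 or male replicate 1 or 3 at 6 months, or female replicate 2 or 4 at 10 months, and any other library left out gave 0.051 to 0.11. Ulk2 lost its Q92 call without male replicate 3 at 6 months (0.069).

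The nucleation and conjugation genes were called in scattered lines. Pik3c3, the catalytic subunit of the nucleating lipid kinase, rose in Q50 (0.0765 ± 0.028, adjusted p = 0.035) and in wild type (0.067 ± 0.02, adjusted p = 0.0081). Atg14, its autophagy-specific partner, rose in Q50 (0.1 ± 0.031, adjusted p = 0.0095) and Q92 (0.082 ± 0.031, adjusted p = 0.042), while Becn1 fell in Q50 (-0.071 ± 0.026, adjusted p = 0.038). Atg7 fell in Q50 (-0.1 ± 0.031, adjusted p = 0.01) and Q92 (-0.087 ± 0.0315, adjusted p = 0.031). Atg12, the ubiquitin-like protein joined to Atg5, rose in Q20 (62.7 CPM at 10 months, 57.0 CPM at 6 months, 0.14 ± 0.0335, adjusted p = 0.0026), and Atg3 rose in wild type (0.079 ± 0.029, adjusted p = 0.039).

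Of the 5 Atg8 genes, 3 were called lower with age in Q92, 1 in Q50 and none in Q20 or Q140, and 1 was called higher in wild type. Map1lc3a had 76.4 to 95.1 CPM in Q92 at 10 months (median 89.7) against 90.2 to 128 CPM at 6 months (median 99.2), a change of -0.22 ± 0.052 (adjusted p = 0.001), and it fell in Q50 (-0.19 ± 0.052, adjusted p = 0.0055). The Q50 call was lost without female replicate 4 at 6 months (adjusted p = 0.1), the library with 14.7% mitochondrial counts. Map1lc3b had 179 to 198 CPM in Q92 at 10 months (median 185) against 189 to 227 CPM at 6 months (median 198), a fall of 0.11 on the log2 scale (SE 0.032, adjusted p = 0.0094). In wild type it was higher at 10 months, with 174 to 221 CPM (median 196) against 173 to 198 CPM at 6 months (median 185), a change of 0.082 ± 0.023 (adjusted p = 0.0053) that was carried by the wild types housed with Q20 (with those housed with Q50 alone, 0.023 and adjusted p = 0.67). The Q92 call of Map1lc3b was lost without male replicate 3 at 6 months (0.057). Gabarapl1 fell in Q92 (462 CPM at 10 months, 489 CPM at 6 months, -0.081 ± 0.029, adjusted p = 0.03), and Gabarap and Gabarapl2 were called in no age change.

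Of the 4 receptors, 1 was called lower in Q92 and in Q20, 3 were called higher in Q50, and none was called in Q140 or wild type. Sqstm1 fell in Q92 (-0.11 ± 0.031, adjusted p = 0.0057) and Q20 (-0.087 ± 0.031, adjusted p = 0.042). The Q20 call held only without female replicates 2 and 3 at 6 months, or female replicates 3 and 4 or male replicates 2 and 3 at 10 months, each left out alone, and was otherwise 0.055 to 0.095. In Q50, Nbr1, an autophagy receptor for ubiquitinated cargo, rose (0.097 ± 0.029, adjusted p = 0.0083), as did Optn, the receptor optineurin (0.13 ± 0.046, adjusted p = 0.032), and Wdfy3, the aggregate-clearing scaffold ALFY (285 CPM at 10 months, 246 CPM at 6 months, 0.21 ± 0.076, adjusted p = 0.03). Nbr1 lost its call without female replicate 4 at 6 months (0.071), and the number of members called in Q50 was then 6 instead of 14. The Optn and Wdfy3 calls were not followed library by library.

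On the lysosomal membrane, Lamp2 rose in Q20 (90.9 ± 3.93 CPM at 10 months, 83.7 ± 3.8 CPM at 6 months, SD, n = 8 each), a log2 fold change of 0.12 ± 0.037 (adjusted p = 0.019). It also rose in Q50 (0.145 ± 0.0371, adjusted p = 0.0023), Q92 (0.11 ± 0.037, adjusted p = 0.018) and wild type (0.11 ± 0.026, adjusted p = 0.0012). In Q140 it averaged 89.7 ± 2.63 CPM at 10 months and 85.3 ± 6.44 CPM at 6 months and was not called. The Q20 call was lost without female replicate 1 at 6 months (0.051) or at 10 months (0.059), and the Q92 call without female replicate 2 at 6 months (0.053) or male replicate 2 at 10 months (0.054). Npc1 rose in Q50 (82.6 ± 3.03 CPM at 10 months, 72.3 ± 4.64 CPM at 6 months, 0.19 ± 0.035, adjusted p = 2.8e-05) and in wild type (82.0 ± 3.69 CPM at 10 months, 75.2 ± 2.75 CPM at 6 months, 0.12 ± 0.025, adjusted p = 9.1e-05). With the wild types housed with Q20 alone, neither Npc1 (0.06, adjusted p = 0.31) nor Lamp2 (0.046, adjusted p = 0.51) was called. Scarb2, which carries glucocerebrosidase to the lysosome, rose in Q50 (0.19 ± 0.057, adjusted p = 0.0081; without female replicate 4 at 6 months, 0.071), and Lamp1 rose in wild type (0.052 ± 0.0185, adjusted p = 0.032).

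Mcoln1 fell between the ages in 3 knock-in lines. Q20 had 49.7 to 55.9 CPM at 10 months (median 52.9) against 56.5 to 59.9 CPM at 6 months (median 58.8), with no overlap, a change of -0.15 ± 0.032 (adjusted p = 0.00091). Q92 had 46.6 to 62.7 CPM at 10 months (median 54.6) against 54.1 to 63.1 CPM at 6 months (median 59.5), a change of -0.13 ± 0.032 (adjusted p = 0.0017) over overlapping ranges. Q140 had 50.1 to 56.7 CPM at 10 months (median 54.7) against 56.0 to 60.9 CPM at 6 months (median 59.5), a change of -0.11 ± 0.0335 (adjusted p = 0.012). These 3 calls held when any of the libraries was left out. In Q50 the means were 56.0 CPM at 10 months and 56.9 CPM at 6 months, and in wild type 56.0 and 56.1 CPM, with no call.

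Of the enzymes, Ctsb rose in wild type (503 to 581 CPM at 10 months, median 539.6, against 461 to 531 CPM at 6 months, median 508, log2 fold change 0.098 ± 0.022, adjusted p = 0.0006) and Gaa fell there (221 ± 25.1 CPM at 10 months, 250.2 ± 18.8 CPM at 6 months, -0.18 ± 0.05, adjusted p = 0.0053). Gaa was not called with the wild types housed with Q50 alone (-0.082, adjusted p = 0.46), nor Ctsb with those housed with Q20 alone (0.087, adjusted p = 0.066). Ctsa, the protective protein cathepsin A, fell in Q50 (-0.098 ± 0.0335, adjusted p = 0.023), and Tpp1, a tripeptidyl peptidase, rose in Q20 (0.079 ± 0.029, adjusted p = 0.047). Psap fell in Q92 (1274 to 1393 CPM at 10 months, median 1339.9, against 1389 to 1444 CPM at 6 months, median 1417), a change of -0.089 ± 0.022 (adjusted p = 0.0012), and in Q140 (-0.0635 ± 0.0224, adjusted p = 0.037). The Q140 call of Psap was lost, at 0.05 to 0.11, without any 1 of female replicate 1 or male replicates 2 and 3 at 6 months, or female replicate 4 or male replicates 1, 2 and 3 at 10 months. Tpp1 kept its call only without female replicate 1 or male replicate 4 at 6 months, or female replicate 4 or male replicates 1 and 3 at 10 months, and was otherwise at 0.065 to 0.11. Ctsd, Ctsl, Grn and Npc2 were called in no age change.

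**Figure D5:**
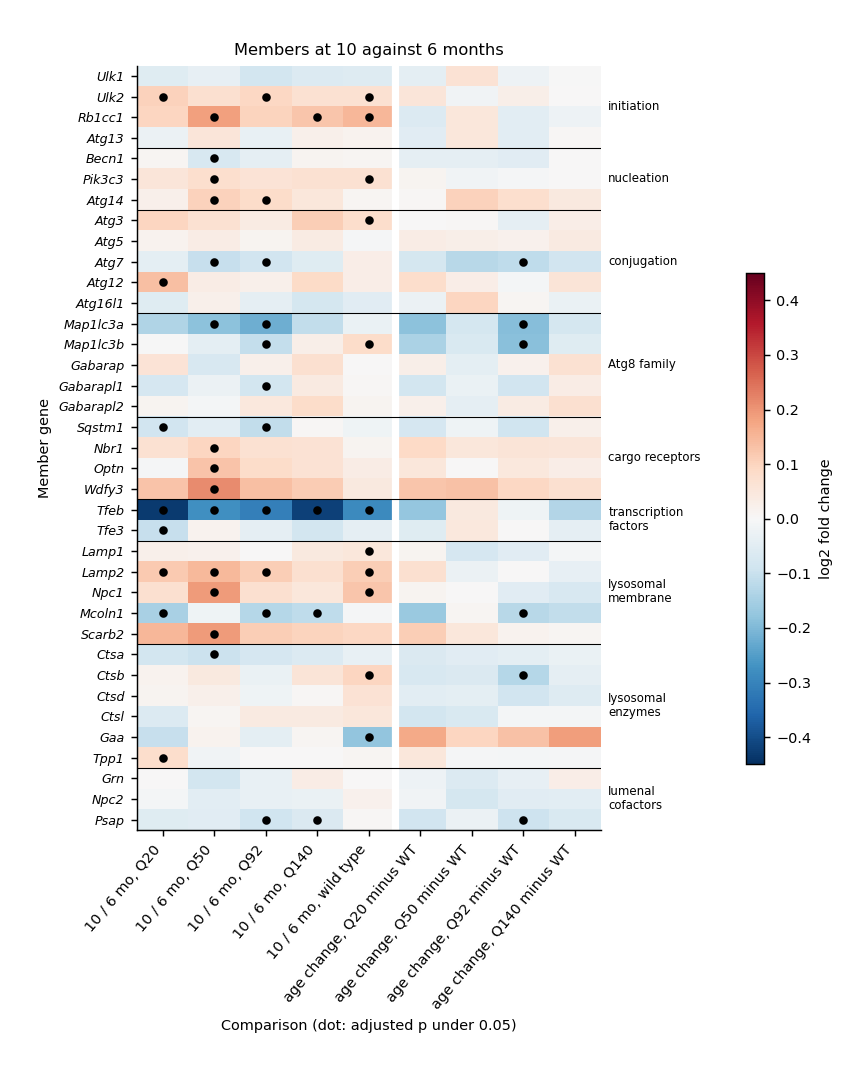
Log2 fold change of 10 against 6 months for the 37 members (rows, grouped by role) in each knock-in line and in wild type, and, at the right, the age change of each line minus that of its wild types; red is higher at 10 months or a more positive age change in the line, and dots mark an adjusted p under 0.05. Tfeb carries a dot in all 5 age columns, Lamp2 in 4, and the difference columns hold dots in Q92 alone (6).

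The counts of age calls depended on single libraries in some lines. In Q20 they were 5 without female replicate 1 at 10 months and 15 without female replicate 4 at 10 months, in Q50 6 without female replicate 4 at 6 months, in Q92 7 without female replicate 1 at 10 months, and in Q140 2 without female replicate 1 or male replicate 2 at 6 months or male replicate 1 at 10 months. In wild type they were 9 to 12 whichever library was left out, but 3 with the wild types housed with Q20 alone and 9 with those housed with Q50 alone. Adding the L code to the fit gave 2 in Q20, 4 in Q50 and 2 in Q140. The Q50 age calls of Tfeb, Pik3c3, Becn1, Optn, Wdfy3 and Ctsa were not followed library by library. Striatal markers differed between ages too: 13 of 14 were called lower at 10 months in wild type (368 to 1219 CPM at 10 months, 508 to 1166 CPM at 6 months), 4 were called higher in Q92 (374 to 690.5 CPM at 10 months, 362 to 453 CPM at 6 months), 6 higher in Q50, 2 higher in Q140 and none in Q20. The 4 cholinergic markers were called higher in Q92 and Q140 and lower in wild type. Olfactory bulb markers were called higher in Q92 (4 of 4) and lower in wild type (3 of 4), and meningeal markers higher in Q140 (3 of 8) and Q92 (2 of 8) and lower in wild type (3 of 8). Microglial markers were called higher in Q20 (3 of 14) and lower in Q50 (6 of 14) and Q92 (3 of 14). Oligodendrocyte markers were called lower in Q20 (4 of 8), Q92 (3 of 8) and Q140 (5 of 8). In Q20, 3 of 9 astrocyte and 3 of 6 endothelial markers were called higher, and in Q92 and Q140, 4 of 6 mural cell markers were. The part of these markers in the age calls was not tested.

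The age change of each line was compared with that of its wild types. No member was called for Q20 (0.693% of all genes), Q50 (0.0%, no gene at all) or Q140 (1.79%). At an unadjusted p under 0.05 there were 6, 4 and 4 members (16.2%, 10.8% and 10.8%), against 13.7%, 4.12% and 14.9% of all genes. DESeq2's Wald test gave 1 for Q20 and 0 for Q50 and Q140. For Q92, 6 of 37 members were called (16.2%, against 9.63% of all genes, 5.88% higher and 3.74% lower), all with a more negative change in Q92 than in wild type. They were Map1lc3b (-0.19 ± 0.0395, adjusted p = 0.00069), Psap (-0.093 ± 0.026, adjusted p = 0.014), Ctsb (-0.13 ± 0.039, adjusted p = 0.021) and Mcoln1 (-0.125 ± 0.0396, adjusted p = 0.029). Atg7 (-0.12 ± 0.0385, adjusted p = 0.041) and Map1lc3a (-0.19 ± 0.064, adjusted p = 0.044) followed.

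These differences combine a Q92 mean that was above wild type at 6 months with one that was below it at 10 months. Map1lc3b averaged 201 ± 12.1 CPM in Q92 and 185 ± 7.01 CPM in wild type at 6 months, and 186 ± 6.75 CPM in Q92 and 196 ± 12.5 CPM in wild type at 10 months. Psap averaged 1419 ± 17.9 CPM in Q92 and 1369 ± 26.6 CPM in wild type at 6 months, and 1334 ± 42.0 CPM in Q92 and 1373 ± 51.2 CPM in wild type at 10 months (SD, n = 8 for Q92 and 16 for wild type). Since the libraries are those of the comparisons at each age and between ages, this is another reading of the same values. Map1lc3b and Psap kept their calls whichever library was left out, and no member was called when the wild types housed with Q50 served alone (Map1lc3b -0.13, adjusted p = 0.14).

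Ctsb was not called without male Q92 replicate 3 at 6 months (0.075), nor was Map1lc3a (0.16). Against wild types housed with Q20 alone Ctsb was not called either (0.059). Mcoln1 was not called, at 0.059 to 0.1, without any 1 of female Q92 replicate 3 or male replicate 4 at 6 months, or female replicates 2 and 4 or male replicate 3 at 10 months. Atg7 lost its call, at 0.05 to 0.081, without any 1 of 16 libraries: at 6 months female Q92 replicates 1, 2 and 3 and male Q92 replicate 4, female and male replicate 3 of the wild types housed with Q20 and male replicate 4 of those housed with Q50, and at 10 months female Q92 replicates 1, 2 and 4 and male Q92 replicate 1, female replicate 3 and male replicate 1 of the wild types housed with Q20, and female replicate 3 and male replicates 2 and 4 of those housed with Q50. Map1lc3a lost its call, at 0.051 to 0.16, without any 1 of 17: at 6 months female Q92 replicates 3 and 4 and male Q92 replicate 3, female replicates 1 and 3 and male replicate 1 of the wild types housed with Q20 and female replicate 2 of those housed with Q50, and at 10 months female Q92 replicates 1, 2 and 4 and male Q92 replicate 2, female replicate 4 and male replicates 1 and 2 of the wild types housed with Q20, and female replicate 3 and male replicates 2 and 4 of those housed with Q50. The number called was 3 without female Q92 replicate 3 at 6 months or female Q92 replicate 2 or 4 at 10 months. In Q20, Mcoln1 was the member nearest to a call (-0.17 ± 0.046, adjusted p = 0.053), followed by Map1lc3b (-0.14 ± 0.046, adjusted p = 0.11). The Mcoln1 value passed the threshold, at 0.016 to 0.048, without any 1 of female Q20 replicates 1 and 2 at 6 months, female Q20 replicates 1, 3 and 4 at 10 months, and female replicate 1 of its wild types at 10 months. Atg7 (-0.12 ± 0.0445) and Atg14 (0.1 ± 0.044) were nearest in Q50 (both adjusted p = 0.9), and Mcoln1 (-0.11 ± 0.0405, adjusted p = 0.14) and Psap (-0.0675 ± 0.0271, adjusted p = 0.19) in Q140. Striatal markers were called with a more positive age change than wild type in Q92 (10 of 14), Q20 (9 of 14) and Q140 (11 of 14). The 4 cholinergic markers were called more positive in the same 3 lines. In Q92 the 4 olfactory bulb markers, 5 of 8 meningeal and 3 of 6 mural cell markers had a more positive age change, and 6 of 9 cortical excitatory and 5 of 8 oligodendrocyte markers a more negative one. In Q140, 4 of 8 meningeal markers had a more positive one and 3 of 8 oligodendrocyte markers a more negative one. Their part was not tested.

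The wider pathway was read from 133 other genes in 5 lists: other autophagy genes (37), lysosomal hydrolases (36), lysosomal membrane and sorting genes (19), subunits of the proton pump V-ATPase (18) and mTORC1 and nutrient-sensing genes (23). All were tested in each comparison. In Q92 at 6 months 3 of the 133 were called higher and 1 lower, against 3.3% and 4.53% of all genes. The autophagy genes Atg4c (0.098 ± 0.028, adjusted p = 0.018), which encodes an Atg8-processing protease, and Bnip3 (0.12 ± 0.037, adjusted p = 0.027), a mitophagy receptor, rose, as did Slc17a5, the sialic acid exporter (0.1 ± 0.032, adjusted p = 0.042). Rragd, which encodes the RagD GTPase that recruits mTORC1 and TFEB to the lysosome, fell in Q92 (-0.17 ± 0.0335, adjusted p = 0.00054) and in Q140 (-0.21 ± 0.034, adjusted p = 4.2e-05) at 6 months, and fell with CAG length at that age (-0.19 ± 0.033 per 100 repeats, adjusted p = 0.00059). Between wild types housed with Q20 and those housed with Q50 at 10 months, 3 of the 133 were called higher and 2 lower, against 3.4% and 3.63% of all genes. Atg101 (0.18 ± 0.058, adjusted p = 0.048), Lamtor4 (0.17 ± 0.053, adjusted p = 0.047) and the V-ATPase gene Atp6v0b (0.099 ± 0.029, adjusted p = 0.031) were higher, and Stx17 (-0.2 ± 0.051, adjusted p = 0.012) and Rragd (-0.15 ± 0.047, adjusted p = 0.041) lower. In these 4 comparisons with a Rragd call the striatal markers were called in the same direction as Rragd. Rragd was also higher at 10 than at 6 months in Q50 (0.17 ± 0.044, adjusted p = 0.0027), Q92 (0.22 ± 0.044, adjusted p = 8.3e-05) and Q140 (0.16 ± 0.045, adjusted p = 0.007). Its age change was more positive than that of wild type in Q92 and Q140. The striatal markers called in these age comparisons went the same way as Rragd. Striatal markers were also called where Rragd was not, in Q20 at 10 months (13 of 14 higher) and with age in wild type. The part of these markers in the Rragd calls was not tested. The hydrolase gene Dpp7 rose in Q140 at 6 months (0.13 ± 0.034, adjusted p = 0.015).

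In Q20 at 10 months 2 of the 133 other pathway genes were called higher and 5 lower, against 2.56% and 1.79% of all genes. Of the 18 V-ATPase subunits 4 were called lower and none higher (median log2 fold change -0.071), among them Atp6v0e2 (-0.12 ± 0.031, adjusted p = 0.027), Atp6v0d1 (-0.105 ± 0.0278, adjusted p = 0.028) and Atp6v1e1 (-0.11 ± 0.033, adjusted p = 0.044). The mitophagy kinase gene Pink1 fell (-0.14 ± 0.04, adjusted p = 0.035), while Lipa, lysosomal acid lipase (0.16 ± 0.041, adjusted p = 0.028), and Tmem106b, a lysosomal membrane protein gene (0.13 ± 0.037, adjusted p = 0.039), rose. No other pathway gene was called in Q20 or Q50 at 6 months, in Q50, Q92 or Q140 at 10 months, between wild types at 6 months or in the trend at 10 months.

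With age, 11 of these genes were called higher and 10 lower in Q20, 29 and 17 in Q50, 9 and 17 in Q92, 13 and 9 in Q140, and 30 and 9 in wild type, of 133 each time. The called share of all genes was 15.3% in Q20, 25.4% in Q50, 25.2% in Q92, 17.4% in Q140 and 23.0% in wild type. Ncoa4, the receptor for ferritin, rose in Q20 (0.165 ± 0.031, adjusted p = 0.00012), Q50 (0.16 ± 0.031, adjusted p = 4.5e-05), Q92 (0.19 ± 0.031, adjusted p = 3.6e-06), Q140 (0.22 ± 0.032, adjusted p = 3.7e-07) and wild type (0.15 ± 0.022, adjusted p = 5.4e-07). Ids, the iduronate sulfatase gene, rose in Q20 (0.22 ± 0.031, adjusted p = 5.2e-07) and in wild type (0.16 ± 0.022, adjusted p = 1.8e-07), and by 0.13 to 0.16 in Q50, Q92 and Q140. Tmem106b rose in all 5, by 0.075 ± 0.026 in wild type (adjusted p = 0.028) to 0.197 ± 0.0383 in Q140 (adjusted p = 0.00015). Of the 18 V-ATPase genes, 1 was called higher and 2 lower in Q20, 2 and 3 in Q50, 0 and 3 in Q92, 2 and 2 in Q140, and 7 and 2 in wild type. For the difference of age changes, 2 of the 133 were called higher and 4 lower for Q92, against 5.88% and 3.74% of all genes. The higher ones were Rragd (0.265 ± 0.0536, adjusted p = 0.00047) and Mitf (0.245 ± 0.0846, adjusted p = 0.05), and Rragd was the only call for Q140 (0.21 ± 0.055, adjusted p = 0.031).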

How the data were processed

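Messenger RNA of mouse cortex was sequenced in 95 libraries. The authors deposited an estimated count and an FPKM value per gene and library (67% of nonzero estimated counts are whole). The submitters' processing notes name CASAVA 1.8.2, and for the aligner, counter, genome build and annotation the sources used here give no name. Estimated counts were rounded, filtered (filterByExpr, minimum count 10, minimum total 15), TMM-scaled and tested with edgeR 4.0.16 (quasi-likelihood, R 4.3.3), with Benjamini-Hochberg adjustment over all genes and a threshold of 0.05. Libraries of an age were fitted together with sex as a covariate, and both ages together for age changes. CPM are estimated counts over TMM-scaled library size, and deposited FPKM served only for levels between genes. DESeq2 1.42.0 and the other alternatives are in the closing section. Named first were the called members with the smallest p, up to 8 per comparison, or the nearest 2 where none was called; other called members were named after their values were seen. The members, marker and pathway lists were chosen with earlier results of these data known. The fits were tested on simulated data. One called gene of the wider pathway is not reported here.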

Additional observations from a re-analysis of the deposited data

Results flagged for a closer look

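Single libraries stood apart from the others of their line and age in 14 of 84 groups of values tested, where chance flags about 1 in 20. The same libraries enter the groups of every gene tested, and most of these genes were picked because they had been called. The total of 14 can therefore not be read against that rate. Female Q50 replicate 4 at 6 months was the highest of its group for Map1lc3b (226 CPM), Gabarapl1 (565), Mcoln1 (61.3), Ctsb (607) and Psap (1544 CPM). Male Q92 replicate 3 at 6 months was the highest for Map1lc3b (227 CPM), Gabarapl1 (556), Map1lc3a (128) and Ctsb (612 CPM). These are the 2 libraries with over 13% mitochondrial counts, and the part of that share in their values was not tested. Gabarapl1 stood apart in female replicate 3 of the wild types housed with Q20 (495 CPM) and in male replicate 1 of those housed with Q50 (435 CPM), both at 10 months. At 6 months, wild types housed with Q50 held a high Map1lc3a value in male replicate 1 (107 CPM) and a low Ctsb value in female replicate 3 (461 CPM), and female Q92 replicate 4 held a high Tfeb value (6.54 CPM).

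The age change in Q92 differed from that in wild type, by the test of the difference in edgeR, for Map1lc3b (-0.188), Map1lc3a (-0.19), Ctsb (-0.129), Mcoln1 (-0.125), Atg7 (-0.116) and Psap (-0.093, all log2).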

How the results depend on the processing

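No result changed direction under an alternative. Counts of called members that moved by over 1.5 times were these. Against wild types housed with Q20 alone there were 3 in Q92 and 1 in Q140 at 6 months, 3 in Q92 at 10 months, 3 for age in wild type and 1 for the age change in Q140 minus wild type. Against wild types housed with Q50 alone there were 3 in Q92 at 6 months and 0 for the age change in Q92 minus wild type, and with the mean of both groups 1 in Q20 at 10 months. Without the filter there were 3 in Q92 at 6 months, 3 in Q20 at 10 months and 2 for age in Q140. DESeq2 size factors gave 1 in Q140 at 6 months and 3 in Q20 at 10 months. DESeq2's Wald test gave 2 in Q140 at 6 months, 1 for the CAG trend at 10 months and 1 for the age change in Q20 minus wild type. The L code as a factor gave 0 in Q20 at 10 months and 2, 4 and 2 for age in Q20, Q50 and Q140. Without the 2 libraries of over 13% mitochondrial counts (chosen after seeing the data) there were 2 in Q140 and 1 for the trend at 6 months, 16, 9 and 9 for age in Q20, Q50 and Q140, and 2 for the age change in Q20 minus wild type. The cause was not tested. Leaving out 1 library gave 3 to 5 in Q92 and 0 to 2 in Q140 at 6 months, 1 to 7 in Q20 and 1 to 3 between wild types at 10 months (3 without female replicate 2 of those housed with Q20, 2 without male replicate 2 of those housed with Q50). For age it gave 9 to 12 in wild type, 5 to 15 in Q20, 6 to 17 in Q50, 7 to 12 in Q92 and 2 to 5 in Q140, and for age changes minus wild type 0 to 2 in Q20 and 3 to 6 in Q92. Replicate numbers did not pair samples (median correlation of deviations 0.00615 over 235 same-numbered pairs, 38 above 0.1). With the replicate block all 21 counts stayed within 1.5 times, at 4 in Q92 at 6 months and 4 in Q20 at 10 months, and Gaa (adjusted p = 0.055) and Atg7 (0.055) lost their calls there.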
